A study of Homo sapiens with 20 samples.

Results

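Gene expression was compared between 4 stable derivatives of LNCaP, an androgen-responsive human prostate adenocarcinoma line, before their EHMT1 transgene was induced. All samples named Veh that belong to the stable lines were taken, which are 8 of the 20 samples of the series. They comprise 2 count columns for each of the lines WT, K450R, K451R and K450RK451R, and K450RK451R was set against the other 3 lines. All 4 lines were made by lentiviral infection of LNCaP with a tetracycline-inducible, V5-tagged EHMT1 construct and puromycin selection, and differ by label only in the encoded EHMT1. WT carries the unchanged protein, K450R and K451R each carry 1 lysine-to-arginine change, and K450RK451R carries both changes. The labels call the Veh samples untreated, and the Dox samples, used here as a second library of each line, received 0.25 µg/mL doxycycline for 2 days. Whether a line is 1 clone or a pool of infected cells is not stated in the sources used here, and with 1 line per allele the allele, the line and its handling cannot be told apart.

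The columns numbered 1 and 2 of each line differed by about as much as counting noise alone gives. A chi-square of their counts, divided by its degrees of freedom, came to 0.995 to 1.01 over 12254 to 13105 genes per line (those whose 2 columns added up to 20 counts or more). The columns were therefore summed and counted as 1 library per line. In the tests on uninduced libraries alone, p thus measures the spread between lines and not between cultures of a line. The p of the test over Veh and Dox libraries measures another spread, which is given with that test. The summed libraries held 12407739 counts in WT, 8436791 in K450R, 8490600 in K451R and 9910958 in K450RK451R. A gene with 3 counts, the floor of detection used here, would be at 0.246 to 0.36 CPM (read counts scaled to library size), a limit for counting error only. The label was checked against cell type markers. All 12 LNCaP markers were present at a summed 11990 to 12710 CPM per line, whereas the markers KRT5 and TP63 of basal epithelium, COL1A2 and DCN of fibroblasts, CDH5 and KDR of endothelium and PTPRC and MS4A1 of leukocytes had 0 counts in all 4 libraries. Of the other members of those lists, COL1A1 was at 32.5 to 39.6 CPM, and the summed level was 2.36 to 4.92 CPM for the basal list and 3.25 to 5.74 CPM for the endothelial list.

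EHMT1, also called GLP, is a histone methyltransferase that pairs with EHMT2 (G9a) and places mono- and dimethyl marks on lysine 9 of histone H3, a modification best known for keeping genes silent through readers such as the HP1 proteins. It can itself be methylated on lysines, and the study asked what methylation of its lysine 450 and of the lysine right after it does in prostate cancer cells. An inducible transgene is meant to stay silent until doxycycline is added, so that uninduced lines serve as the baseline of each induction. The mutated place is shown because the lines differ there by design. In the reference, both codons lie side by side in exon 8 of transcript ENST00000460843, on chromosome 9 of GRCh37, plus strand, from 140648722 to 140648727, in a coding sequence of 1298 codons. The capitals mark the codons of the 2 lysines.
EHMT1 coding sequence, GRCh37 chr9:140648698-140648743, plus strand: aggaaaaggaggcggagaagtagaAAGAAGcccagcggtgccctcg

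EHMT1 itself did not pass the test between the uninduced lines. Its level was 74.1 CPM in WT, 81.9 CPM in K450R, 69.6 CPM in K451R and 86.3 CPM in K450RK451R. K450RK451R was the highest and K451R the lowest, and the log2 fold change of K450RK451R against the other 3 lines was 0.20 (standard error 0.12, edgeR adjusted p = 0.567). With doxycycline, EHMT1 was at 821 CPM in WT, 863 CPM in K450R, 747 CPM in K451R and 681 CPM in K450RK451R, so no uninduced library approached an induced one. The count does not separate the transgene from the endogenous gene. The other 12 genes written down as EHMT1 partners (EHMT2, the zinc-finger partners WIZ and ZNF644, CDYL, the HP1 genes CBX1, CBX3 and CBX5, and KDM1A, RCOR1, HDAC1, HDAC2 and REST of the LSD1-CoREST complex) did not pass the test in the uninduced lines. EHMT2 was at 79.4 CPM in WT, 85.2 CPM in K450R, 81.4 CPM in K451R and 84.7 CPM in K450RK451R. The widest spread among these partners was in WIZ, which was at 43.3, 46.7, 49.1 and 62.0 CPM in the same order, and in CBX5 (HP1 alpha), which was at 130, 138, 115 and 161 CPM.

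The first question was how far each uninduced line stood from the others. Over the 10665 genes whose mean count reached 50, K450RK451R was the highest line for 28.3% and the lowest for 28% of genes, where equal lines would each take 1 gene in 4. WT was highest for 23.4% and lowest for 22.9%, K450R for 23.7% and 21.9%, and K451R for 24.7% and 27.2%. K450RK451R lay at least 1.5-fold above the nearest other line in 34 genes (0.319% of genes) and at least 1.5-fold below it in 57 genes (0.534%). The corresponding counts were 16 above and 17 below in WT, 5 above and 29 below in K450R, and 32 above and 28 below in K451R. The 3 pairs that include K450RK451R held more genes past 2-fold than the other 3 pairs. A 2-fold difference was seen between K450RK451R and WT in 59 genes (0.553%), K450R in 48 genes (0.45%) and K451R in 65 genes (0.609%), against 20 genes (0.188%) between WT and K450R, 33 genes (0.309%) between WT and K451R and 42 genes (0.394%) between K450R and K451R. These are descriptions of single libraries with no test, and the counts of pairs depend on the count minimum, although the typical gene differed little: the median absolute log2 difference of a pair was 0.12 to 0.15.

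**Figure D1:**
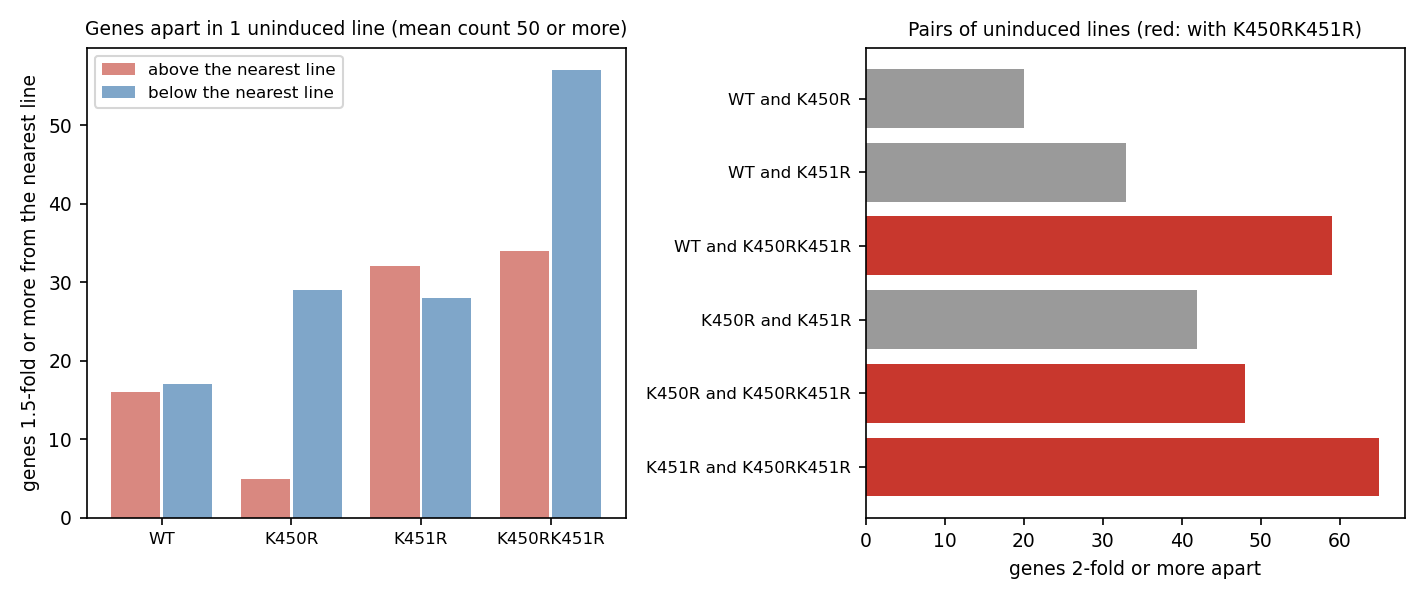
Left, the number of genes (vertical axis) that lay at least 1.5-fold above or below the nearest other line in each of the 4 uninduced lines. Right, the number of genes (horizontal axis) at least 2-fold apart in each pair of lines, both for genes whose mean count reached 50. K450RK451R had 34 genes above and 57 below the nearest line, and the pairs with K450RK451R, in red, held 48 to 65 genes against 20 to 42 in the other pairs.

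Next, K450RK451R was tested against the other 3 uninduced lines together. Of 14847 genes tested, 5 were higher (0.0337%) and 3 were lower (0.0202%) at a Benjamini-Hochberg adjusted p under 0.05 in edgeR's quasi-likelihood test, and 1561 had an unadjusted p under 0.05. The higher genes were RNA5-8SP6, RNA5-8SP2, RNA5-8SP3, AL161626.1 and QSER1, and the lower genes were NEAT1, SCARNA7 and AHSA2. DESeq2 called 3 lower genes (SCARNA7, ANKRD37 and HSPA1B) and 0 higher, with 538 at an unadjusted p under 0.05. The edgeR count was 10 higher and 12 lower when only genes whose mean count reached 50 were tested, and it was 23 and 30 without the WT line, 8 and 9 without the K450R line, and 122 and 178 without the K451R line.

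The highest ratios belonged to RNA5-8SP6, RNA5-8SP2 and RNA5-8SP3, loci that resemble 5.8S ribosomal RNA, the short RNA paired with 28S RNA in the large ribosomal subunit. Their sequences are shown because they are alike, so that the reads behind the 3 loci may be the same RNA.
RNA5-8SP6, GRCh37 chrY:10037764-10037915, plus strand: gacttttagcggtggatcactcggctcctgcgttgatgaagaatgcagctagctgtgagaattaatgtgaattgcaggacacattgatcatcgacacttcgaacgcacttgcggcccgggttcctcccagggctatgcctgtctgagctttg
RNA5-8SP2, GRCh37 chr16:33965426-33965577, plus strand: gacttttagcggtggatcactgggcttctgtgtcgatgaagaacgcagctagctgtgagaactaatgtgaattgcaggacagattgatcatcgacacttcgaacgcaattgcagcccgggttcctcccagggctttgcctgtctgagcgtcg
RNA5-8SP3, GRCh37 chr9:111754689-111754849, minus strand: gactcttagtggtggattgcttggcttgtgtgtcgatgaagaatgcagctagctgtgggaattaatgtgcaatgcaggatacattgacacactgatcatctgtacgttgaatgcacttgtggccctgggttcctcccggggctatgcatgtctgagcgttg
The GRCh37 sequences of RNA5-8SP2 and RNA5-8SP6 were identical at 140 of 152 aligned positions (92.1%), and RNA5-8SP3 shared 80.1% with RNA5-8SP6 and 78.3% with RNA5-8SP2. RNA5-8SP6 had 8 counts in WT, 3 in K450R, 4 in K451R and 101 in K450RK451R. RNA5-8SP2 had 5, 4, 3 and 63 counts in the same order, and RNA5-8SP3 had 2, 0, 4 and 59. All 3 loci were thus near the floor in every uninduced line but K450RK451R, and they passed the filter on low counts (10 counts) only through that line, so their calls are given as a description. In the Dox libraries the order differed: RNA5-8SP6 had 4 counts in WT, 40 in K450R, 16 in K451R and 6 in K450RK451R, and RNA5-8SP3 had 2, 29, 13 and 1. Reads of a repeated RNA can be shared between such copies, so the values of single loci are uncertain. Without these 3 loci the test left 1 higher gene, AL161626.1, and 2 lower genes, NEAT1 and SCARNA7.

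AL161626.1, a 57-base locus annotated as a microRNA on chromosome 9 of GRCh37 from 79186731 to 79186787, was at 6.07 CPM in WT, 5.16 CPM in K450R, 8.96 CPM in K451R and 21.1 CPM in K450RK451R. Its log2 fold change was 1.65 (standard error 0.24, edgeR adjusted p = 0.00269), and no such gap was seen in the Dox libraries, where the lines lay between 7.80 and 12.4 CPM. QSER1, which is known to guard developmental promoters from DNA methylation, is found at 32914357 to 33014862 of chromosome 11 (GRCh37). It was at 13.9 CPM in WT, 12.6 CPM in K450R, 12.7 CPM in K451R and 25.5 CPM in K450RK451R, a log2 fold change of 0.96 (standard error 0.17, edgeR adjusted p = 0.0391). K450RK451R also stood above the rest in the Dox libraries, with 14.5, 13.1, 13.8 and 22.8 CPM in the same order of lines. QSER1 missed the threshold without the K450R line (edgeR adjusted p = 0.0622).

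Of the lower genes, NEAT1, the long noncoding RNA on which paraspeckles are built, is found at 65190245 to 65213011 of chromosome 11 (GRCh37) and was at 1090 CPM in WT, 813 CPM in K450R, 650 CPM in K451R and 326 CPM in K450RK451R. K450RK451R lay below the rest, with a log2 fold change of −1.39 (standard error 0.19, edgeR adjusted p = 0.00159), but the 3 other lines were themselves far apart and DESeq2 gave an adjusted p of 0.274. In the Dox libraries NEAT1 was at 261 CPM in WT, 275 CPM in K450R, 182 CPM in K451R and 253 CPM in K450RK451R. Uninduced K450RK451R was thus closer to the level of the Dox libraries than the other uninduced lines were, although the difference between the Veh and Dox contrasts did not pass its test (1.47 on the log2 scale, edgeR adjusted p = 0.999). SCARNA7, a small Cajal body RNA, was at 62.7, 57.95, 55.2 and 34.5 CPM in WT, K450R, K451R and K450RK451R (log2 fold change −0.77, standard error 0.13, edgeR adjusted p = 0.0232). AHSA2, a relative of the HSP90 activator AHSA1 that is annotated as a pseudogene, was at 21.7, 19.6, 20.2 and 9.66 CPM (log2 fold change −1.09, standard error 0.20, edgeR adjusted p = 0.0391). With doxycycline the log2 fold change was −0.47 for SCARNA7 and −0.16 for AHSA2.

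**Figure D2:**
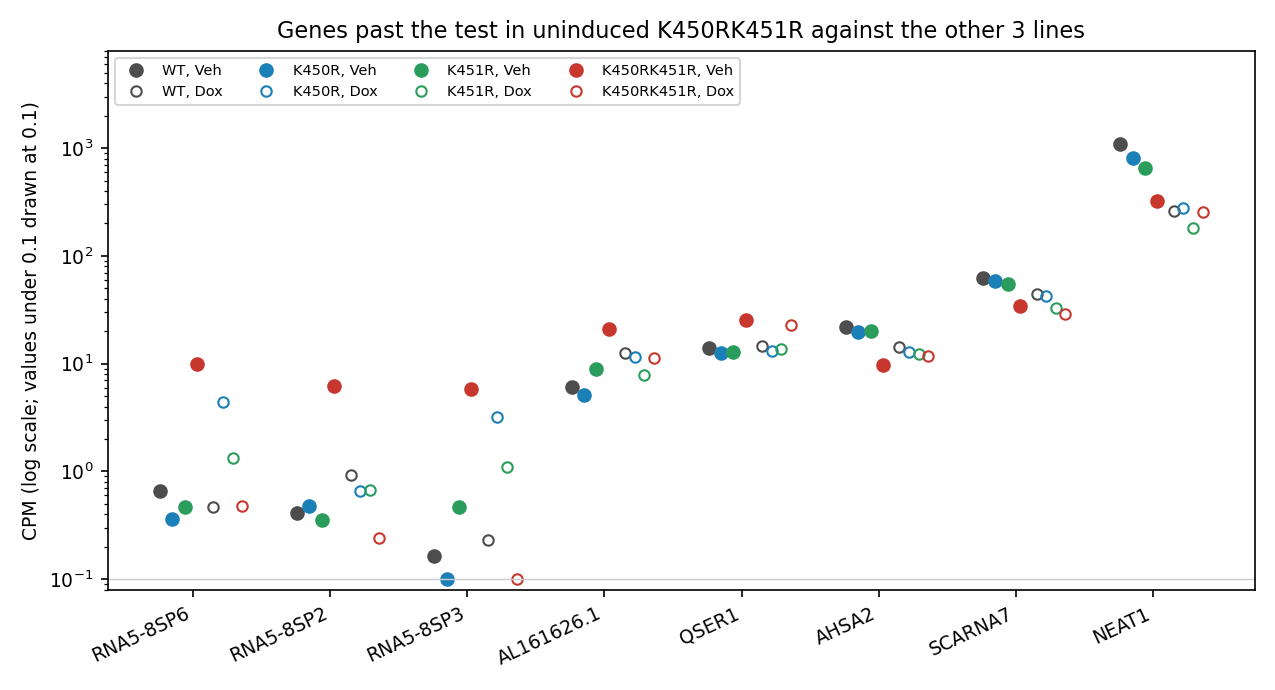
Level in CPM on a log axis of the 8 genes past the test in uninduced K450RK451R against the other 3 lines. Each point is 1 library (filled, Veh; open, Dox), and values under 0.1 CPM are drawn at 0.1. The 5.8S-like loci were high only in K450RK451R among the Veh libraries and in K450R and K451R among the Dox libraries for 2 of them, QSER1 was high in K450RK451R in both, and NEAT1 ran from 1090 down to 326 CPM in the Veh libraries.

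At the study's cutoff of 2-fold with an unadjusted p under 0.05, 144 genes were higher in K450RK451R (0.97% of genes) and 213 were lower (1.43%). Most rested on few reads, since 327 of these 357 genes (91.6%) had a mean count under 50, whereas 71.8% of all genes tested were at or above that count. The Dox libraries, which share no library with this contrast, gave the same sign for 59 of the 106 higher genes (55.7%) and 95 of the 186 lower genes (51.1%) that were measured there. Over all genes tested the signs were the same for 56.5%. Of the 30 cutoff genes whose mean count reached 50, 19 had the same sign (63.3%), and no difference between these shares was tested. The 34 genes that lay 1.5-fold above the nearest line had the same sign in the Dox libraries in 21 cases (61.8%) and the 57 that lay below in 38 cases (66.7%), against 58% of all genes whose mean count reached 50.

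Since few genes passed the test, those with the widest gap to the nearest line are described too. None of the genes in this paragraph passed the test, with edgeR adjusted p from 0.071 to 0.231. On the higher side, NXPE3 was at 10.8 CPM in WT, 11.5 CPM in K450R, 11.2 CPM in K451R and 20.1 CPM in K450RK451R. SUFU, a negative regulator of Hedgehog signalling, was at 9.76, 10.1, 9.55 and 17.2 CPM in the same order, and PLCH1, a phospholipase C, at 5.41, 4.68, 5.42 and 10.2 CPM. RNF208, STX16 and ZNF324B were also 1.5-fold or more above the nearest line, at 15.4, 10.5 and 10.4 CPM in K450RK451R against 7.46 to 8.49, 4.01 to 6.07 and 4.51 to 5.54 CPM in the others. On the lower side, FAS, a death receptor and p53 target, was at 10.3 CPM in WT, 10.3 CPM in K450R, 10.5 CPM in K451R and 4.73 CPM in K450RK451R. GRHL1, an epithelial transcription factor, was at 6.23, 6.48, 6.13 and 2.37 CPM, and DDX60, an interferon-stimulated helicase gene, at 6.72, 4.92, 6.84 and 1.97 CPM. HSPA6, an inducible HSP70 gene, was at 15.1, 6.96, 7.31 and 2.76 CPM, and HSPA8P8, a pseudogene of a constitutive HSP70, at 11.6, 9.48, 11.1 and 4.24 CPM. In K450RK451R these 5 lower genes had 20 to 48 counts each. In the Dox libraries the log2 fold change kept its sign for NXPE3 (0.37), PLCH1 (0.62), ZNF324B (0.31), FAS (−0.37) and HSPA6 (−3.35, of few counts). It turned for SUFU (−0.08), STX16 (−0.18), RNF208 (−0.45), GRHL1 (0.47), HSPA8P8 (0.29) and DDX60 (0.01).

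To see whether K450RK451R was peculiar in this respect, each other line was set against its own 3 counterparts in the same way. IRF1, an interferon regulatory transcription factor, was the only gene higher in WT and TXNIP, a glucose-responsive arrestin, the only gene lower in WT (0.00674% of genes each). IRF1 was at 60.3 CPM in WT and 29.6 to 35.2 CPM in the other lines (edgeR adjusted p = 0.0232), and TXNIP at 300.5 CPM in WT and 494.5 to 582 CPM in the others (edgeR adjusted p = 0.0232). Both gaps had the same direction with doxycycline, at 46.8 CPM against 16.3 to 29.9 CPM for IRF1 and at 254 CPM against 516 to 548 CPM for TXNIP. For K450R, 0 genes passed the edgeR test, with 321 at an unadjusted p under 0.05, and limma-voom also called 0. For K451R, 9 genes were higher (0.0606%) and 0 were lower, and 750 had an unadjusted p under 0.05. They included the small nucleolar RNAs SNORD3A, SNORD13 and SNORA54, and SNORA76, whose locus is annotated as a long noncoding RNA. SNORD3A, the U3 RNA needed to process ribosomal RNA, was at 486 CPM in WT, 435 CPM in K450R, 1017 CPM in K451R and 404 CPM in K450RK451R, and between 392 and 477.5 CPM in the Dox libraries. The other 5 were RPL17, MT-CO3, BCHE and 2 pseudogenes, and of these BCHE, which encodes butyrylcholinesterase, was at 42.3 CPM in K451R against 16.4 to 21.95 CPM in the other lines with doxycycline too. Small nucleolar and Cajal body RNAs together took 0.241% of counts in K451R against 0.136 to 0.159% in the other lines. The calls do not rank the lines, since 3 of those in K450RK451R passed the filter on low counts only through that line. These were the loci that resemble ribosomal RNA, and their mean counts were under 50. Among genes whose mean count reached 50, the gap to the nearest line gives a description only. At least 1.5-fold above and below it lay 34 and 57 genes in K450RK451R and 32 and 28 in K451R. The numbers were 16 and 17 in WT and 5 and 29 in K450R.

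Differences between the lines over both treatments were then sought by fitting the 4 Veh and 4 Dox libraries together with a term for treatment. The contrast was K450RK451R against the mean of the other 3 lines. Both libraries of a line come from the same line, so this test asks whether a difference was repeated within the lines, and not whether it would be in newly made lines. Its p measures how far the line differences varied between the treatments, and not the spread between lines. In the Dox libraries the EHMT1 transgene of each line was induced, so the line and its induced allele cannot be told apart there. Of 14869 genes tested, 97 were higher (0.652%) and 106 were lower (0.713%) in K450RK451R at an edgeR adjusted p under 0.05, and 400 genes (2.69%) differed between any of the 4 lines. K450RK451R was the lowest line in both treatments for 80 of the 106 lower genes (75.5%) and the highest in both for 88 of the 97 higher genes (90.7%). These shares describe genes chosen on this contrast, and over all genes whose mean count reached 50 they were 9.76% and 9.61%. The differences were small, with a median log2 fold change of −0.43 among the lower and 0.41 among the higher genes, and 6 lower and 3 higher genes were past 2-fold. All 106 lower and 97 higher genes had the same sign in the Veh libraries alone. Those libraries were part of the test that chose the genes, so this agreement is no separate support. The size could differ by treatment. The log2 fold change was −0.14 in Veh and −0.60 in Dox for JUND, and −0.32 and −1.17 for CXCR4. For NLGN4X it was larger in Veh, at 0.97 against 0.21. The numbers were 39 higher and 49 lower without the WT line, 52 and 66 without the K450R line, and 163 and 213 without the K451R line. The test of whether the K450RK451R contrast itself differed between Veh and Dox libraries gave 0 of 14869 genes by edgeR and 0 by limma-voom, with 591 and 612 at an unadjusted p under 0.05.

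Several genes that cells switch on quickly in response to growth factors or stress were among the lower genes, and they are given by list. The lists were chosen with earlier results of these data known, so counts of their members are a description only. Of 15 tested members of the immediate-early and MAPK feedback list, 5 were lower (FOS, ATF3, JUNB, DUSP5 and JUND) and 0 were higher, where 0.713% of all genes were lower and 0.652% higher. FOS, which encodes a subunit of the AP-1 transcription factor, was at 179 CPM in WT, 117 CPM in K450R, 72.3 CPM in K451R and 44.4 CPM in K450RK451R without doxycycline, and at 175, 76.6, 39.7 and 33.7 CPM with it. The 4 lines stood in the same descending order in both treatments, with a log2 fold change of −1.33 (standard error 0.11, edgeR adjusted p = 7.48e-08). In the Veh libraries alone the log2 fold change of FOS was −1.48 with an edgeR adjusted p of 0.0546. ATF3, a stress-induced partner of the same family, was at 325, 245, 275 and 198 CPM in the Veh libraries (log2 fold change over both treatments −0.53, edgeR adjusted p = 0.000299). JUNB did not set K450RK451R apart from K451R, since its levels were 476, 395, 295 and 313.5 CPM in the uninduced lines. JUND was likewise lowest there in K451R, at 922 CPM against 942 CPM in K450RK451R. With doxycycline JUNB was again lowest in K451R (176 against 182 CPM), but JUND was lowest in K450RK451R (667 against 717 CPM). DUSP5, a phosphatase that dampens ERK signalling, was at 25.5, 16.8, 15.6 and 11.4 CPM in the uninduced lines. With doxycycline it was lowest in K451R, at 6.79 CPM against 7.48 CPM in K450RK451R. The list's median log2 fold change was −0.20 in the Veh libraries and −0.53 in the Dox libraries, against −0.005 and −0.004 over all genes, and in Veh it was −0.003 against K451R alone.

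In the heat shock list, 3 of 14 tested members were lower (HSPA1B, DNAJB1 and HSPB1) and 0 were higher, beside 0.713% and 0.652% of all genes. HSPA1B, an inducible HSP70 chaperone gene, was at 96.2 CPM in WT, 82.2 CPM in K450R, 64.6 CPM in K451R and 45.2 CPM in K450RK451R, and at 109, 39.0, 30.9 and 21.7 CPM with doxycycline (log2 fold change −1.03, standard error 0.16, edgeR adjusted p = 0.00122). K450RK451R was again the lowest line in both treatments and WT the highest. HSPA1B has a near-identical neighbour, HSPA1A, to which 0 to 5 counts were assigned, so the value is uncertain as to which of both genes the reads came from, and DESeq2 gave HSPA1B an adjusted p of 0.111. DNAJB1, the HSP40 co-chaperone of HSP70, was at 140, 114, 99.98 and 75.7 CPM (edgeR adjusted p = 0.00122 over both treatments, and 0.0544 without the WT line). HSPB1, a small heat shock protein gene, was at 688, 672, 483 and 483 CPM, with K451R and K450RK451R alike. Among constitutive chaperone genes, HSPA8 was at 667 to 726 CPM and HSP90AB1 at 1169 to 1274 CPM in the uninduced lines, with edgeR adjusted p of 0.873 and 0.603 over both treatments.

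In the hypoxia and glycolysis list, 4 of 35 tested members were lower (ANKRD37, VEGFA, PFKFB3 and SLC2A1) and 0 were higher, again beside 0.713% and 0.652% of all genes. ANKRD37, a target of hypoxia-inducible factors, was at 413 CPM in WT, 313.5 CPM in K450R, 358 CPM in K451R and 233 CPM in K450RK451R, and at 438, 229, 193 and 133 CPM with doxycycline (log2 fold change −0.82, standard error 0.11, edgeR adjusted p = 0.000299). HILPDA, a hypoxia-induced lipid droplet gene that is in none of the lists and was chosen after its values were seen, was at 997, 712, 629 and 432 CPM without and 996, 361, 250 and 193 CPM with doxycycline (edgeR adjusted p = 0.000299). DESeq2 left both genes short of the threshold, with adjusted p of 0.0603 for ANKRD37 and 0.0895 for HILPDA. VEGFA, the main angiogenic growth factor, was at 1710, 1516, 1291 and 1159 CPM in the uninduced lines. With doxycycline it was at 930 CPM in K451R and 937 CPM in K450RK451R. In the uninduced lines the glycolytic regulator PFKFB3 and the glucose transporter SLC2A1 were lowest not in K450RK451R but in K451R. Their levels in K451R were 479 against 504 CPM and 273.5 against 276 CPM. With doxycycline both were lowest in K450RK451R, at 267.5 against 295.5 CPM in K451R for PFKFB3 and 186 against 204 CPM for SLC2A1. The remaining 31 tested members did not pass the test, and the list's median was −0.02 in the uninduced lines and −0.21 in the Dox libraries. The summed level of the list was 52500 CPM in K450RK451R, between 48590 CPM in K451R and 56940 CPM in K450R.

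Another pair of genes with low edgeR adjusted p over both treatments were chosen after their values were seen. ELF3, an epithelial ETS factor, was at 402 CPM in WT, 312 CPM in K450R, 236.5 CPM in K451R and 194 CPM in K450RK451R (log2 fold change −0.76, edgeR adjusted p = 2.64e-05). GADD45B, a stress-induced gene, was at 197.5, 153, 123 and 94.5 CPM (log2 fold change −0.81, edgeR adjusted p = 0.000251). Both followed the descending order from WT through K450R and K451R to K450RK451R. That order held in the uninduced libraries for 45 of the 93 lower genes in which K450RK451R was lowest (48.4%), and WT was the highest line for 65 of them (69.9%). Over all genes with K450RK451R lowest and a mean count of at least 50, whatever the size of their differences, these shares were 18.7% and 36%. The lower genes were chosen on a contrast that holds these same libraries, so the shares are a description only. The order says nothing of the spacing, which was graded for FOS, whereas for SCARNA7 the other 3 lines lay close together.

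**Figure D3:**
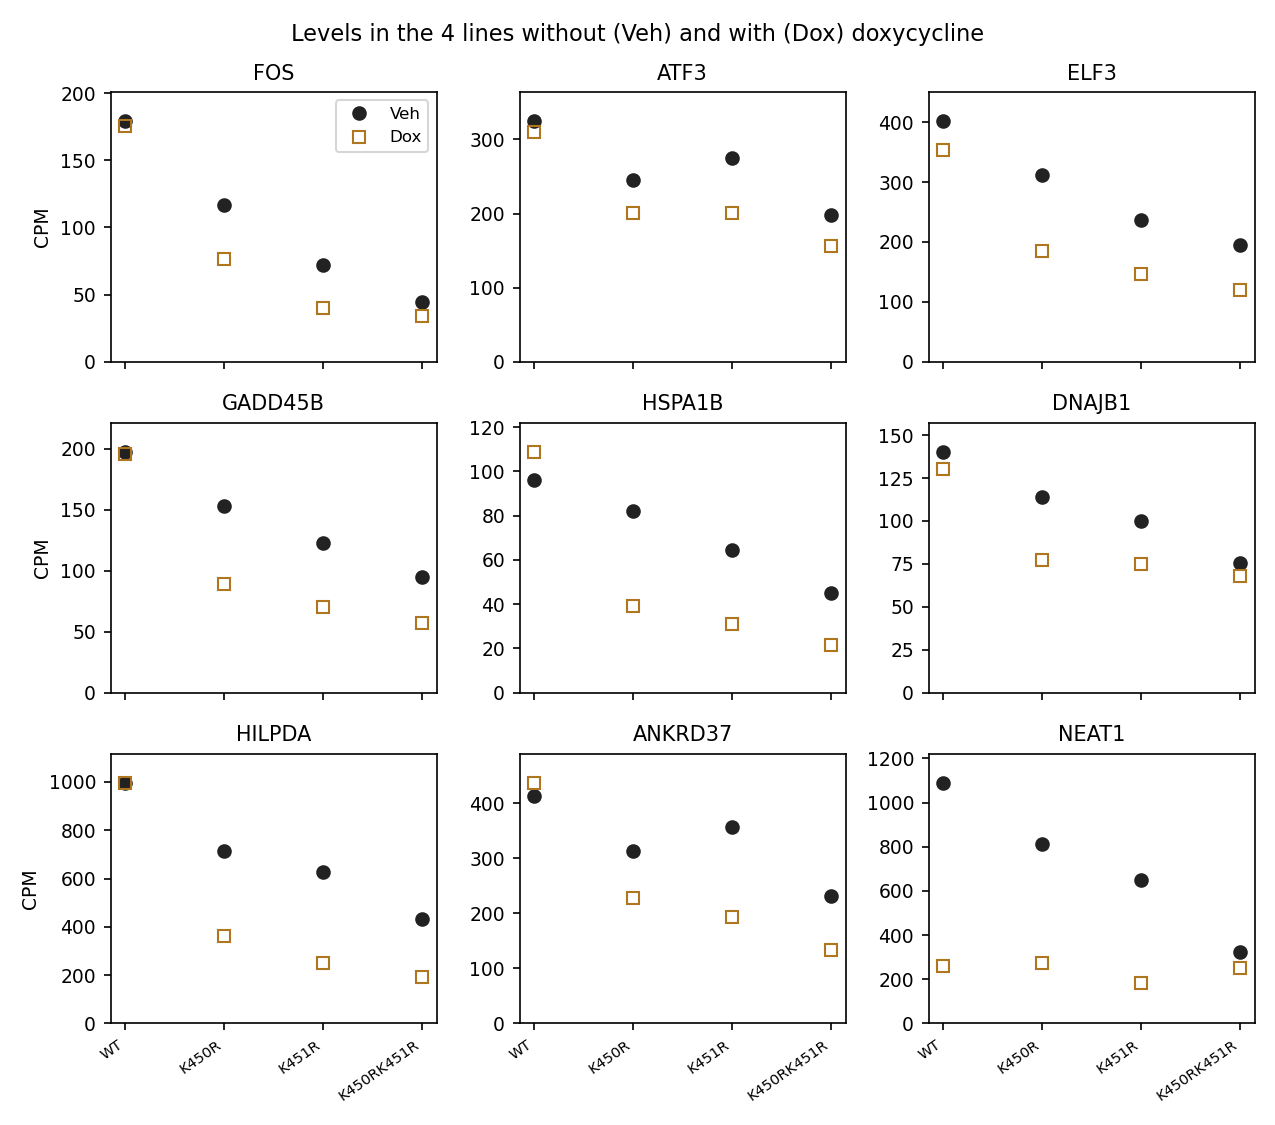
Level in CPM (vertical axes, from 0) of 9 genes in the 4 lines (horizontal axes) without doxycycline (filled circles) and with it (open squares), 1 library per point. FOS runs from 179 to 44.4 CPM in the Veh libraries and from 175 to 33.7 CPM in the Dox libraries, while NEAT1 runs from 1090 to 326 CPM in Veh and lies between 182 and 275 CPM in all Dox libraries.

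The promoters of 4 of these genes are shown because the genes were all lower in K450RK451R and belong to programmes with well-known response elements. Of several windows of a gene the one with most matches is shown, so the matches themselves are no result. Promoter windows of 300 bases (250 before to 50 after the start of transcription) were taken from RefSeq on GRCh38.p14, with capitals marking a heat shock element core (GAANNTTC), a hypoxia response element core (ACGTG) or the core of a cyclic AMP response element (TGACGT), each searched on both strands.
HSPA1B promoter, GRCh38.p14 chr6:31827488-31827787, plus strand: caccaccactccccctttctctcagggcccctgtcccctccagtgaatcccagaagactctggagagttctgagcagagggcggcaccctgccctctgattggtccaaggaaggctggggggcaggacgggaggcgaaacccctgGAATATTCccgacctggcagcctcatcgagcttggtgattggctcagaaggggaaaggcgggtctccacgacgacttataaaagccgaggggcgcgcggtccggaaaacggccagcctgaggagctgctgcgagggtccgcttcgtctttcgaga
DNAJB1 promoter, GRCh38.p14 chr19:14518348-14518647, minus strand: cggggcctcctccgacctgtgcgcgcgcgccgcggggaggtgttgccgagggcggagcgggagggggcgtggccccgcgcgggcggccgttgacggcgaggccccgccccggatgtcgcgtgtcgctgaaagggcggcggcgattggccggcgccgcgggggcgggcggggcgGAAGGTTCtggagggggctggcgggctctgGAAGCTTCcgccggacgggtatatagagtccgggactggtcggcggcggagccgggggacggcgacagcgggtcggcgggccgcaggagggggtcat
ANKRD37 promoter, GRCh38.p14 chr4:185396591-185396890, plus strand: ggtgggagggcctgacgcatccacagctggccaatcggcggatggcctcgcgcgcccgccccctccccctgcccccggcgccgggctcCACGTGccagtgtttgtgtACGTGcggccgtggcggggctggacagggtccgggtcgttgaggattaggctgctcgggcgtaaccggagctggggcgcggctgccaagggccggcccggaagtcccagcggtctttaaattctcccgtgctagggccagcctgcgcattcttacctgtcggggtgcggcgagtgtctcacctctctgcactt
FOS promoter, GRCh38.p14 chr14:75278578-75278877, plus strand: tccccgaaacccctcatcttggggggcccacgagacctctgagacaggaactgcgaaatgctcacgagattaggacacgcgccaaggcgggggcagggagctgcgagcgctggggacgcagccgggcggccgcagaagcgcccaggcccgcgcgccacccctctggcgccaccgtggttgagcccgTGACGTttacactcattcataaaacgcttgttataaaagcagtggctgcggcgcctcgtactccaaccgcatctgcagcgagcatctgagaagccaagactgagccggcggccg
HSPA1B holds 1 GAANNTTC, which begins at base −105 from the start, and the DNAJB1 window shown, 1 of 3 of that gene, holds 2, at −77 and −47. ANKRD37 holds ACGTG 3 times on the 2 strands, with matches at −162 and −161 overlapping, and FOS holds TGACGT once at −64. Windows were found by symbol for 69 of the 106 lower genes, 72 of the 97 higher genes and 9341 tested genes in all. GAANNTTC was in 8.33% of the 108 windows of lower genes, 3.85% of the 104 windows of higher genes and 4.79% of all 13742 windows. ACGTG was in 25.9%, 21.2% and 25.7%, and TGACGT in 8.33%, 15.4% and 10.6%. ACGTG and TGACGT overlap in TGACGTG, and a match is a string of letters and not a measured binding site.

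The genes higher in K450RK451R, 0.652% of all genes, were scattered over several lists. MKI67, which encodes the Ki-67 antigen of cycling cells, was at 62.1 CPM in WT, 52.4 CPM in K450R, 56.8 CPM in K451R and 87.0 CPM in K450RK451R without doxycycline and at 61.6, 60.7, 54.1 and 81.3 CPM with it. K450RK451R stood above the other lines in both treatments (log2 fold change 0.54, standard error 0.08, edgeR adjusted p = 0.00059). The other 29 tested genes of the G2/M and mitosis list did not pass the test, and the list's median in the uninduced lines was −0.08, of the opposite sign. In the G1/S and DNA replication list, 2 of 36 were higher: FEN1, a flap endonuclease, at 25.4, 26.2, 32.5 and 37.1 CPM and CDC6, which loads the replicative helicase, at 21.2, 21.7, 27.7 and 29.8 CPM. Here K451R lay close to K450RK451R, and the list's median against K451R alone was −0.03. MYC and its target ODC1, which makes polyamines, were the 2 of 30 higher in the MYC and ribosome biogenesis list, with MYC at 103, 111, 131 and 138 CPM (edgeR adjusted p = 0.0136). E2F1, which the study names, was at 40.4, 36.4, 48.2 and 47.0 CPM and did not pass either test.

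Among chromatin genes, CBX5 was the 1 gene of 13 in the EHMT1 and partner list past the test over both treatments, where 0.652% of all genes were higher. Its log2 fold change was 0.32 (standard error 0.06, edgeR adjusted p = 0.0106), and without the K451R line its adjusted p was 0.0674. Of 11 other H3K9 methylation enzymes 0 passed. SUV39H2 was at 7.38, 7.56, 6.72 and 12.6 CPM in the uninduced lines, with an edgeR adjusted p of 0.264 there and a log2 fold change of −0.09 in the Dox libraries. ADNP, which binds HP1 proteins and was chosen after its values were seen, was higher at 51.0, 51.2, 45.0 and 73.6 CPM (edgeR adjusted p = 0.0106 over both treatments). SLC7A1, a transporter of basic amino acids, was the only higher gene of 29 tested in the ATF4 amino acid list, at 65.2, 73.4, 77.1 and 100.3 CPM (edgeR adjusted p = 0.00516, and 0.0519 without the WT line). NUPR1, DDIT3, DDIT4, SLC3A2 and STC2 of the same list were lower, where 0.713% of all genes were lower. The sterol and fatty acid synthesis list had 3 of 28 lower and 0 higher, beside 0.713% and 0.652% of all genes. These included SREBF1 and INSIG1, which set the rate of lipid synthesis, and SREBF1 was at 912, 893, 702 and 624 CPM in the uninduced lines. With doxycycline SREBF1 was lowest in K451R, at 598 CPM against 616 CPM in K450RK451R. IRF1 and B2M were the 2 of 24 tested members lower in the interferon-stimulated list, against 0.713% of all genes. Their log2 fold change over both treatments was −0.64 and −0.30. For IRF1 this went with its high level in WT, as K451R and K450RK451R were at 29.6 and 30.0 CPM in the uninduced lines.

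Of the gene lists other than cell type markers, the one with the lowest median in uninduced K450RK451R was that of nuclear and splicing noncoding RNAs, which also holds the splicing kinase and cyclin genes CLK1, CLK4, CCNL1 and CCNL2. All 15 members had a negative log2 fold change against the other 3 lines, and K450RK451R was the lowest line for 13 of them, against 28% of all genes. The list was chosen with earlier results of these data known, so these counts are a description only. The median was −0.30, and 1 member, NEAT1, passed the test in the Veh libraries. Against WT, K450R and K451R singly the median was −0.33, −0.30 and −0.37, and scaling to the total count gave −0.25 where it moved the median of all genes by 0.05. MALAT1, a nuclear speckle RNA, was at 2777 CPM in WT, 2431 CPM in K450R, 1812 CPM in K451R and 1631 CPM in K450RK451R, and CCNL2 at 65.7, 67.4, 71.6 and 47.1 CPM. In the Dox libraries the list's median was −0.18, but MALAT1 was at 1339, 1327, 871 and 1262 CPM with K451R lowest, and CCNL2 was highest in K450RK451R at 52.8 CPM against 48.2 to 51.2 CPM. Over both treatments 4 of the 15 were lower, against 0.713% of all genes, which were SNHG1, CLK1, RN7SL1 and RN7SL2. SNHG1, a host of small nucleolar RNAs, was at 217, 193, 187 and 142 CPM in the uninduced lines (edgeR adjusted p = 0.000348), and CLK1, a kinase of splicing factors, at 157, 149, 134 and 111 CPM (edgeR adjusted p = 0.00132). RN7SL1 and RN7SL2, the near-identical genes of the RNA of the signal recognition particle, together took 2.66% of counts in K450RK451R and 2.97 to 3.36% in the other lines. As the list holds RNAs of very different length and copy number in total RNA, the part of library preparation in this pattern was not tested.

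The other lists are given more briefly, beside 0.652% of all genes higher and 0.713% lower over both treatments. The androgen response list, with 24 tested members and a summed level of 15550 CPM in K450RK451R and 16260 to 16630 CPM in the other lines, had a median of −0.03 and 0 members past either test. The prostate lineage list had 1 of 16 higher over both treatments, GRHL2, and FOXA1, a pioneer transcription factor, was at 159, 170.0, 212 and 197 CPM without passing. Among neuroendocrine genes 5 of 17 were tested, of which SYT4 was higher over both treatments (log2 fold change 0.30, edgeR adjusted p = 0.0193). SYT4 was highest not in K450RK451R but in K451R, at 467, 488, 644 and 631 CPM in uninduced WT, K450R, K451R and K450RK451R. With doxycycline it was at 457, 591.5, 760 and 747 CPM, again highest in K451R. ENO2, another neuroendocrine marker, was at 405, 363, 288 and 329 CPM in the uninduced lines. Another 6 of the 17, among them CHGA, had 0 counts in all 4 lines. The p53 targets, ribosomal protein genes, ER chaperones, replication-dependent histones, metallothioneins, WNT targets, glucuronidation genes and mitochondrially encoded mRNAs had 0 members past either test. Their medians in the uninduced lines ran from −0.09 for the 5 metallothioneins to 0.13 for the mitochondrial mRNAs, and in the Dox libraries from −0.52 for the metallothioneins to 0.36 for the WNT targets. The mitochondrial mRNAs showed how 1 line can set a median: it was 0.13 against the other 3 lines, but 0.20, 0.38 and −0.23 against WT, K450R and K451R singly. PPP1R14C, LIPT2, FRMPD2 and MCM7, which the study names, did not pass either, and SYP, with 2 to 9 counts, was under the filter.

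**Figure D4:**
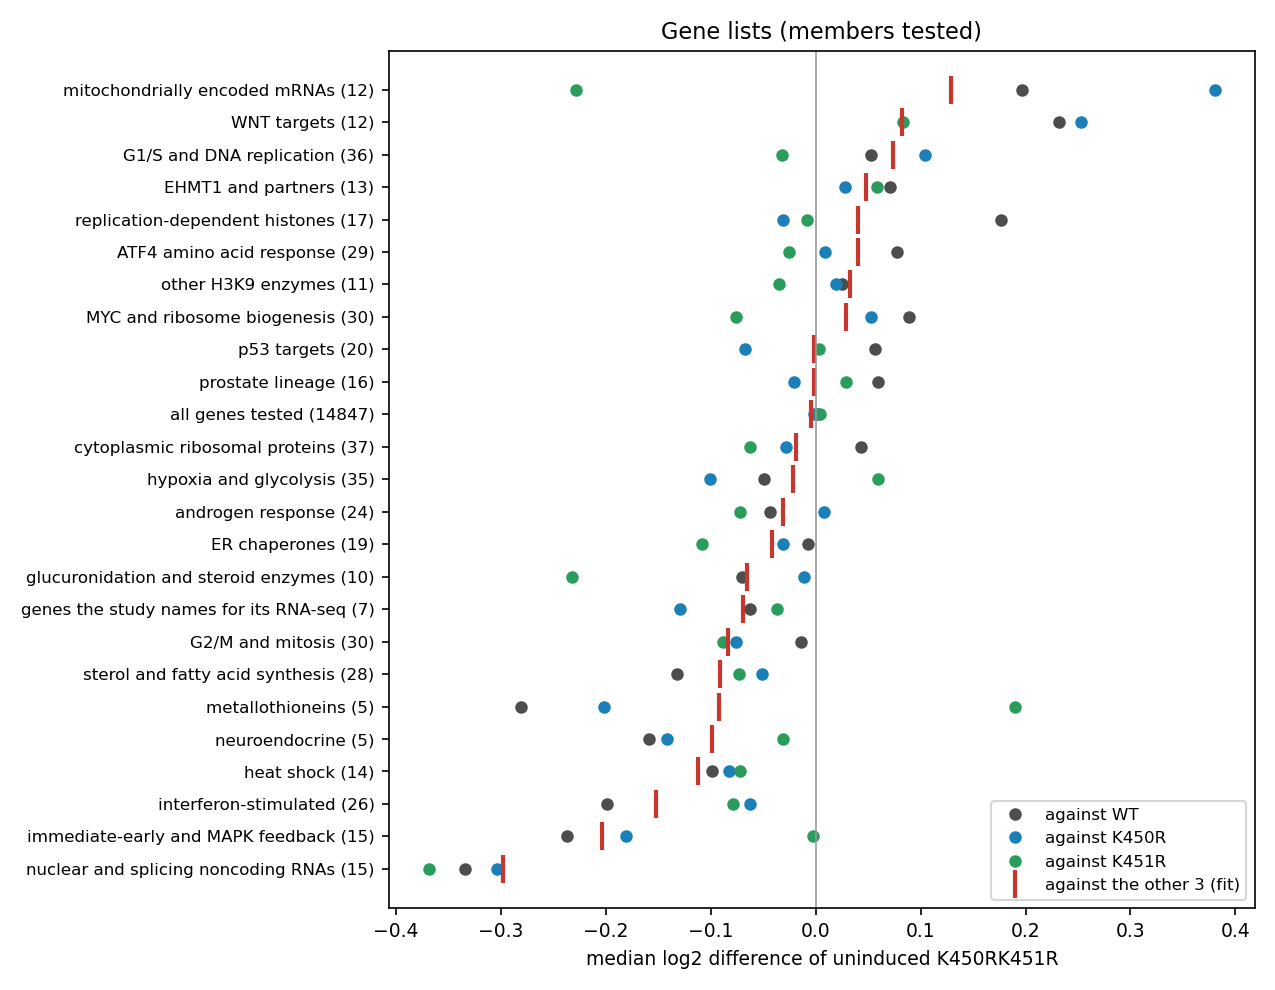
Median log2 difference (horizontal axis) of uninduced K450RK451R for each gene list (rows, with the number of members tested), against WT, K450R and K451R singly (points) and against the 3 together in the fit (red bars). Nuclear and splicing noncoding RNAs lie between −0.37 and −0.30 against every line, whereas mitochondrially encoded mRNAs lie at 0.20, 0.38 and −0.23.

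By chromosome, the differences were small. With genes whose mean count reached 50, the median log2 fold change of K450RK451R lay between −0.065 and 0.0473 on the autosomes and X, where the median of all genes was −0.002. The lowest value, on chromosome 15 with 351 genes, was also found in the Dox libraries at −0.0625, and chromosome 16 had a median of −0.09 in K451R and 0.08 in K450R. By exonic length, the medians of K450RK451R were −0.0262, 0.00122 and 0.0188 in the short, middle and long genes, split into 3 equal bins, and −0.0472, −0.011 and 0.0253 in the Dox libraries. By GC content they were −0.00595, 0.0041 and −0.00668, whereas in K451R they went from 0.0404 in the bin with the least GC to −0.0574 in that with the most. The part of these trends in the gene differences was not tested.

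**Figure D5:**
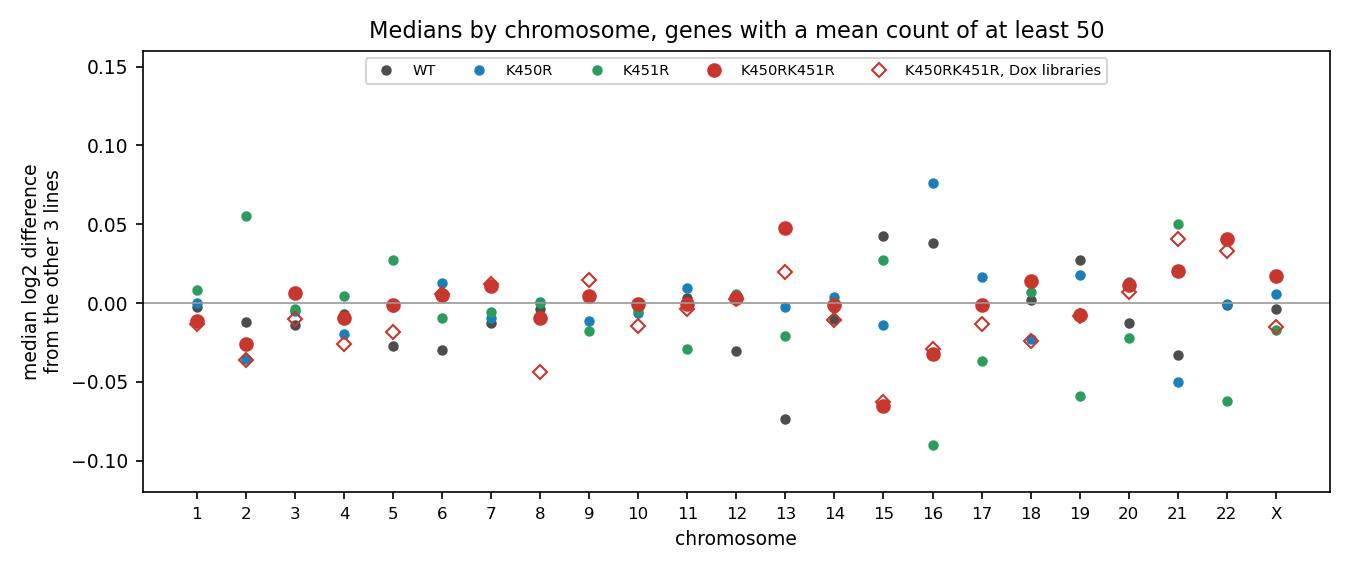
Median log2 difference of each line from the other 3 (vertical axis) by chromosome (horizontal axis), over genes whose mean count reached 50. Filled points are Veh libraries and open diamonds the K450RK451R contrast in the Dox libraries. The medians of K450RK451R stay between −0.065 and 0.0473.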

How the data were processed

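Total RNA was prepared with stranded libraries (TruSeq) after RNeasy extraction, and single-end reads were aligned to hg19 (GRCh37). The submitters' processing notes name FastQC 0.11.9, STAR 2.7.2 and featureCounts 1.6.4. The strand setting and annotation release are not given in the sources used here. For the stable lines the authors deposited a table of unnormalized counts by gene ID. A second table, of siRNA samples, was not used here.

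Gene names and places came from a GRCh37 annotation (55538 of 57773 IDs matched). Columns 1 and 2 of each line and treatment, which agreed within counting noise, were summed, and column totals were 4168199 to 6272708. Counts were filtered with filterByExpr, scaled by TMM and tested with edgeR 4.0.16 quasi-likelihood F tests in R 4.3.3, with Benjamini-Hochberg adjustment. With K450RK451R alone against 3 lines, the spread is that between those 3 lines, and the lone library is assumed to vary like them. The second model had terms for treatment and line over 8 summed libraries, so its spread is that left within lines after the treatment term. CPM values used TMM-scaled totals. Alternatives used DESeq2 1.42.0, limma-voom 3.58.1, other scalings, count filters, the columns apart, and each line or column left out. Using the Dox libraries alone, and leaving out the 5.8S-like loci, were alternatives chosen after seeing the data. A simulation drew all libraries from a common mean and dispersion per gene, so the lone library varied like the others by construction. Its changed genes all had a mean count of at least 50. The shares recovered thus do not cover genes of few counts and do not check the assumption on the lone library. On simulated data the 1 against 3 fit recovered 90% of 100 genes changed 2-fold and 100% of 100 changed 4-fold, with 11 of the unchanged genes called, and the model over 8 libraries recovered 96% and 100%, with 16 called.

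Members and lists were chosen with earlier results of these data known. Genes were named by this rule: EHMT1, its partners and the genes the study names. To these were added the genes past the test in K450RK451R, filled to 8 per direction by the gap to the nearest line where fewer than 5 passed with a mean count of at least 50, the genes of widest gap in each other line, and list members past a test or with the widest spread. Floors and intervals cover counting error only. Some genes of the lists are not reported here.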

Additional observations from a re-analysis of the deposited data

Results flagged for a closer look

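In 9 genes named by the rule and in CCNL2, K450RK451R lay on one side of all 3 other lines in the Veh libraries and on the opposite side of all 3 in the Dox libraries. The difference between the contrasts, Dox minus Veh on the log2 scale, was tested for each as an interaction in edgeR, and 0 passed, with an adjusted p of 0.999 for each but RNA5-8SP3. RNA5-8SP2 had the same pattern but too few counts for this test. It was 1.87 for GRHL1, 1.63 for HSPA8P8, 1.42 for COL7A1, 0.78 for ATF5, 0.62 for CCNL2, −1.41 for RNF208, 0.68 for PPP1R14C and −0.45 for EHMT1. For LIPT2, at 0.902, 0.960, 1.53 and 0.0985 CPM in uninduced WT, K450R, K451R and K450RK451R, it was 4.02 and rests on few counts. For RNA5-8SP3 it was −8.76, with an edgeR adjusted p of 0.68.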

How the results depend on the processing

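Deviations of same-numbered columns correlated at −0.0139 to 0.0124 across lines over 10665 genes. As the columns of a line differed by about counting noise, this cannot show whether the replicate numbers pair samples across lines. The total of column 2 was 1.022 to 1.024 times that of column 1 in the uninduced lines, and the origin of this ratio was not tested. With columns kept apart and the replicate number as a block, uninduced K450RK451R had 210 higher and 191 lower genes (330 and 321 without the block), and 883 and 836 over Veh and Dox libraries (961 and 919 without the block), since columns of 1 line then count as replicates. The 5 higher and 3 lower genes of the uninduced test became 0 higher with DESeq2, 46 and 70 with no count filter, 10 and 12 at a mean count of at least 50, 0 and 0 in the Dox libraries, and 1 higher without the 5.8S-like loci. Leaving out 1 line or column gave 4 to 122 higher and 5 to 178 lower. At the 2-fold cutoff, 144 higher and 213 lower became 40 and 117 with DESeq2, 222 and 130 with limma-voom, 348 and 384 with no filter, 6 and 23 at a mean count of at least 50, 87 and 136 with the block, 88 higher without the block, 69 and 91 in the Dox libraries, and 99 to 162 and 124 to 208 with 1 line or column left out. Over Veh and Dox libraries, 97 higher and 106 lower became 36 and 56 with DESeq2 (90 of its 92 genes shared), 155 and 187 with no filter, and 39 to 163 and 49 to 213 with 1 line or column left out. With limma-voom, WT had 3 higher genes. Of the 7 genes past the uninduced test that were also tested in the Dox libraries, 3 turned direction there, with log2 fold changes of −4.04 for RNA5-8SP3, −2.08 for RNA5-8SP6 and 0.08 for NEAT1. Genes past 2-fold at a mean count of at least 20 and 200 were 117 and 1 for WT with K450R, 124 and 6 for WT with K451R, 213 and 11 for WT with K450RK451R, 174 and 8 for K450R with K451R, 232 and 3 for K450R with K450RK451R, and 235 and 6 for K451R with K450RK451R. Scaling to total counts moved the median of all genes by 0.0492, and list medians to 0.0972 for EHMT1 and partners, 0.0821 for other H3K9 enzymes, 0.0181 for androgen response, 0.0471 for prostate lineage, −0.042 for sterol synthesis, −0.0634 for heat shock, −0.0344 for G2/M, −0.249 for nuclear RNAs and −0.0205 for the genes the study names. With 1 line left out, list medians ranged from 0.026 to 0.0594 for EHMT1 and partners, −0.185 to 0.0864 for neuroendocrine, −0.166 to −0.0868 for heat shock, −0.101 to −0.0199 for G2/M and −0.357 to −0.251 for nuclear RNAs. At a mean count of at least 200 chromosome medians became −0.0169 (chromosome 1), −0.0022 (3), 0.0311 (6), 0.00448 (7), −0.0142 (8) and 0.0033 (10). The cause of the other shifts was not tested. With 1 library per line, calls for genes of few counts are the least certain.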
